A study of Mus musculus with 4 samples.

Results

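Thyroid hormone acts in the brain through nuclear receptors, and the 9 genes described here encode those receptors and the proteins that work with them: Thra, Thrb, Rxra, Rxrb, Rxrg, Ncor1, Ncoa1, Med1 and Crym. They were chosen by name, and every array probe whose transcript accession belongs to one of them was taken, which gave 22 probes among 56605 on the array. They are 9 of the 22911 genes that could be named. The arrays carried Cy3-labelled total RNA of female mouse dorsal hippocampus, taken once behavioural testing had ended. The 20-fold iodine group, whose iodine intake was in excess, had 2 arrays (replicates 2 and 3), and the control group also had 2 (replicates 2 and 3). The labels used here give no age, strain or length of treatment, nor whether each replicate was its own animal, so the p-values cover the scatter between samples alone, part or all of which could be technical. Fewer cells of a type and less RNA per cell cannot be told apart in such whole-tissue samples.

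The receptors TR alpha (Thra) and TR beta (Thrb) bind the active hormone, T3, and sit on DNA mostly as pairs with a retinoid X receptor (RXR). Without hormone the pair holds a corepressor built around NCoR1 and silences its target genes, and with hormone it exchanges the corepressor for coactivators such as NCoA1 and for the Mediator complex, which it contacts through MED1. Mu-crystallin, the product of Crym, binds T3 in the cytoplasm. In the brain TR alpha is the more widespread receptor.

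No difference in the receptor and cofactor genes between 20-fold iodine and control was detected beyond the spread between arrays. None of the 22 probes passed limma's adjusted p of 0.05, with a smallest adjusted p of 0.546 among them, and 0 of 38231 probes (0% of all tested) passed on the whole array. At an unadjusted p under 0.05 there was 1 of 22, a dim Ncor1 probe, where 9.03% of all probes had such a p. In 11 of the 22 both iodine arrays lay on one side of both controls (8 higher and 3 lower in iodine), against 41.6% of all probes tested (23.2% higher and 18.4% lower). Fitted differences, given throughout as log2 20-fold iodine minus control, ran from -0.20 to 0.45 among the members, and 20 of 22 lay within 0.25 of 0, as did 81.8% of all probes. The members' median was 0.03, beside 0.01 over all probes tested. Signs were 14 higher and 8 lower, and 11 of each with arrays scaled to the median of the probes above background on all arrays. Without iodine replicate 2 they were 10 higher and 12 lower (median -0.04), and without iodine replicate 3 they were 15 higher and 7 lower (median 0.098).

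Values below are normalized log2 signals: the processed signal of the probe on a log2 scale, shifted so that the arrays share their 75th percentile. A level can be compared between arrays for 1 probe, but not between probes. All 22 probes passed the filter on dim signal (well above background on at least 2 of 4 arrays), and 21 were well above background on all 4. Standard errors (SE) of the fitted differences were 0.08 to 0.18, on 2 arrays per group.

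**Figure D1:**
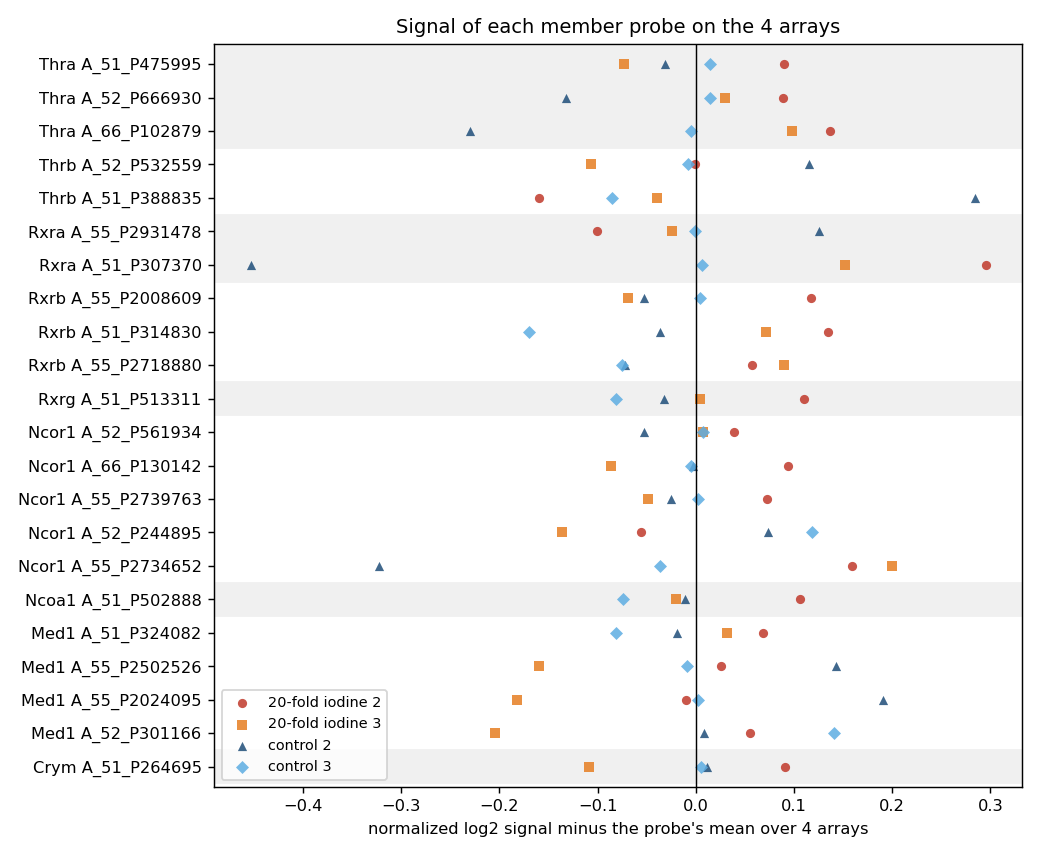
Normalized log2 signal of each of the 22 member probes on the 4 arrays, as the distance from that probe's own mean over the arrays; each row is a probe, and the points are the 2 arrays of 20-fold iodine (replicates 2 and 3) and the 2 of control (replicates 2 and 3). In the brightest Thra, Rxrb and Crym rows the 2 iodine arrays lie on both sides of the controls, and the widest row is the dim Rxra probe, with control replicate 2 far to the left.

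Thra, which encodes TR alpha, had 3 probes, all citing the same transcript (NM_178060) of the 2 curated for the gene. The brightest, A_51_P475995, read 12.02 and 11.85 in the iodine arrays and 11.90 and 11.94 in the control arrays. The iodine arrays thus held both the highest and the lowest value, and the difference was 0.02 ± 0.10 (SE, n = 2 per group), a fold of 1.01 with a 95% confidence interval of 0.843 to 1.21. With the second probe, A_52_P666930, the iodine arrays read 11.00 and 10.94 against 10.78 and 10.93 in controls, a difference of 0.12 ± 0.09. The third, A_66_P102879, read 9.08 and 9.04 in iodine and 8.71 and 8.94 in controls, a difference of 0.23 ± 0.11 with an adjusted p of 0.615 by limma. Both of these separated the groups in the same direction, and in both control replicate 2 was the lowest array. Without control replicate 2 the third probe's difference was 0.12, and without control replicate 3 it was 0.35. All 3 probes were higher in iodine, but the brightest turned to -0.04 with normexp background correction, -0.00877 with scaling to the median, -0.07 without iodine replicate 2 and -0.00676 without control replicate 2, and their differences spanned 0.22, more than the SE of any of them.

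The gene body of Thra overlaps that of Nr1d1, a clock repressor gene on the opposite strand, in the RefSeq gene table. Nr1d1, named here after its value was seen, read 7.49 and 7.62 in iodine and 7.03 and 7.14 in controls. Its difference was 0.47 ± 0.10 (SE), with an adjusted p of 0.518 by limma, so the groups did not overlap but the test was not passed. The differences of the 3 Thra probes, 0.02 to 0.23, were smaller, and the gap between the genes was not tested.

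Thrb, which encodes TR beta, had 2 probes, both citing NM_009380, 1 of 2 curated transcripts. A_52_P532559 read 7.45 and 7.35 in iodine and 7.57 and 7.44 in controls. Here 1 iodine array lay just above the lower control, so the groups overlapped, and the difference was -0.11 ± 0.10 (SE, adjusted p = 0.776 by limma), a fold of 0.928 with a 95% interval of 0.776 to 1.11. The dim probe A_51_P388835 read 3.94 and 4.06 in iodine and 4.38 and 4.01 in controls, a difference of -0.20 ± 0.15. Both Thrb probes gave lower values in iodine and their differences were 0.09 apart, so they agreed in sign and within their SE. That of the dim probe rested on control replicate 2, without which it was -0.01, and it was 0.00298 with another background correction.

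RefSeq places 2 starts of Thrb 320684 bases apart on chromosome 14. TR beta is known in forms that begin at separate promoters and differ at their amino end, and which start each probe's transcript follows was not analysed here. The windows from 250 bases before to 50 after each start (RefSeq, GRCm38.p6) are shown, first the distal start and then the other, because they set apart the 2 ways the gene is begun. Capitals mark AGGTCA, the half-site that TR and RXR bind, searched on both strands. The first window has 72.7% G and C and holds 1 such match, while the other has 46% and none.
Thrb, chr14:17660710-17661009 (+ strand): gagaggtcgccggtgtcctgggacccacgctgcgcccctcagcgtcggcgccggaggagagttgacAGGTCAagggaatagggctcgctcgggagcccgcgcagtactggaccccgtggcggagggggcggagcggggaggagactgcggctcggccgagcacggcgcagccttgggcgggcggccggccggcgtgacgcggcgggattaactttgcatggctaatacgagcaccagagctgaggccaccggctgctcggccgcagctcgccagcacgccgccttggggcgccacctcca
Thrb, chr14:17981394-17981693 (+ strand): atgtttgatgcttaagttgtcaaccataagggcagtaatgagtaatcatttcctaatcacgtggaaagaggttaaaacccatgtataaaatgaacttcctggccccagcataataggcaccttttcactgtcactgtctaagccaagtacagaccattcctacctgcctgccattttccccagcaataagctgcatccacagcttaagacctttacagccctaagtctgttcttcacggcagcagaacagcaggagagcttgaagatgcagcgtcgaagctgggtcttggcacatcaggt
Of the 12 windows found for 7 of the 9 members 3 held AGGTCA, and so did 16.3% of 32851 windows of all genes. The paired form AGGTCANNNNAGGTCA, with a spacer of 4 bases, was in 5 of all windows and in 0 of the members'. A match is a description of the letters, not a bound site. Thra and Crym had no entry.

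The retinoid X receptors are the shared partners of TR and of several other nuclear receptors. Rxra had 2 probes of opposite sign, both citing NM_011305. A_55_P2931478, bright and well above background everywhere, read 10.10 and 10.17 in iodine and 10.32 and 10.20 in controls. The iodine arrays were both lower, the nearest pair by little, and the difference was -0.12 ± 0.09 (SE, adjusted p = 0.729 by limma). A_51_P307370, the dimmest member probe, read 3.14 and 2.99 in iodine and 2.39 and 2.85 in controls. It was well above background on both iodine arrays and on 1 of 2 control arrays, with processed signals of 8.69 and 7.58 in iodine against 5.49 and 7.32 in controls. Its difference was 0.45 ± 0.18 (SE, adjusted p = 0.579 by limma), the largest among the members, and 0.22 without control replicate 2, 0.68 without control replicate 3 and 0.10 with normexp background correction. No direction can be given for Rxra from these probes, and the mean of the 2 probes (0.16) had the sign opposite to that of the bright probe.

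Rxrb had 3 probes, all higher in iodine, except that the brightest was at -0.04 without iodine replicate 2. The brightest, A_55_P2008609, read 11.03 and 10.84 in iodine and 10.86 and 10.92 in controls, a difference of 0.05 ± 0.10 (SE). The controls lay between the iodine arrays, so this probe shows no separation. A_51_P314830, citing another transcript, read 6.07 and 6.01 in iodine and 5.90 and 5.77 in controls, a difference of 0.21 ± 0.09. A_55_P2718880 read 5.998 and 6.03 in iodine and 5.87 and 5.86 in controls, a difference of 0.15 ± 0.08 (adjusted p = 0.648 by limma). The pair of dimmer probes separated the groups and the bright one did not, as with Thra.

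Rxrg, the retinoid X receptor known for its expression in striatum and pituitary, had 1 probe, A_51_P513311. It read 7.63 and 7.52 in iodine and 7.49 and 7.44 in controls, with both iodine arrays above both controls. The difference was 0.11 ± 0.09 (SE, adjusted p = 0.736 by limma), a fold of 1.08 with a 95% interval of 0.919 to 1.28. Markers of those 2 tissues were read on the same arrays. Of 10 striatal genes 8 had positive differences (median 0.15, with 1 at an unadjusted p under 0.05 and 0 past the adjusted threshold), and their summed linear signal was 4797 and 4327 in iodine against 4094 and 3836 in controls. Among them Drd2 was the least detected, well above background on 2 of 4 arrays. Of 10 pituitary genes 5 were tested and 4 had positive differences (median 1.43, with 3 at an unadjusted p under 0.05 and 0 past the adjusted threshold). Their summed signals were 2330 and 1728 in iodine against 599.6 and 1164 in controls. Growth hormone (Gh) differed by 2.16 ± 0.31 and Prl, the brightest of them, by 1.97 ± 0.69. Prl read 10.73 and 10.16 in iodine and 7.54 and 9.42 in controls. Pomc, the next brightest, stood at 0.24 ± 0.10 and Lhb at -0.11 ± 0.10. Tshb, Fshb, Pou1f1 and Ghrhr were among the pituitary genes that did not reach the filter. Their part in the Rxrg value was not tested.

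The second start of Rxra and that of Rxrg are shown because they are the other windows among the members with the letters of the half-site, in capitals again (TGACCT is the same site read on the other strand). They come from RefSeq, GRCm38.p6.
Rxra, chr2:27709042-27709341 (+ strand): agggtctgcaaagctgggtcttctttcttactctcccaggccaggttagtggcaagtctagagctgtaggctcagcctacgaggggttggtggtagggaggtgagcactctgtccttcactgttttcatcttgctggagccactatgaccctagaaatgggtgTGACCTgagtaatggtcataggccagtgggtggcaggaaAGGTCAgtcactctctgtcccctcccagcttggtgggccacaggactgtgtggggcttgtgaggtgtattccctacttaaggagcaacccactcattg
Rxrg, chr1:167618015-167618314 (+ strand): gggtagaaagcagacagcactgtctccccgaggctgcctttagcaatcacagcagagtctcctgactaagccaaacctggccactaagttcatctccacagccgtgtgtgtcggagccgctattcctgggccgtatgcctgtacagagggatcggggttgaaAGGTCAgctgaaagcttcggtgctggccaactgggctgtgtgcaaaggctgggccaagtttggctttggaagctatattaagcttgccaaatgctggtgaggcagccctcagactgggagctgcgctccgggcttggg
The Rxra window holds 2 matches, 1 on each strand, and that of Rxrg holds 1. The first starts of both genes hold 0.

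Ncor1, the core of the corepressor complex that hormone-free TR recruits, had 5 probes, the most of any member, citing 3 transcripts. Its 3 bright probes gave differences of 0.05 ± 0.08, 0.01 ± 0.10 and 0.02 ± 0.09 (SE). A_52_P561934, the brightest, read 10.33 and 10.30 in iodine and 10.24 and 10.30 in controls, a fold of 1.03 with a 95% interval of 0.887 to 1.20. The bright Ncor1 probes therefore agreed closely with each other. The 2 dim ones did not: A_52_P244895, the probe that cites NM_177229, read 5.82 and 5.74 in iodine and 5.95 and 5.997 in controls, a difference of -0.19 ± 0.08 (adjusted p = 0.593 by limma). In contrast, A_55_P2734652 read 4.14 and 4.18 in iodine and 3.65 and 3.94 in controls, a difference of 0.36 ± 0.13 (unadjusted p = 0.043, adjusted p = 0.546 by limma). This probe, the member with the smallest unadjusted p, cites NM_011308, as do 2 of the bright probes that showed no such difference. It was 0.22 without control replicate 2, 0.50 without control replicate 3 and 0.09 with normexp.

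Ncoa1, the coactivator also called SRC-1, had a single probe, A_51_P502888, at 11.30 and 11.18 in iodine and 11.19 and 11.12 in controls. One iodine array lay just below the higher control, and the difference was 0.09 ± 0.09 (SE, adjusted p = 0.816 by limma). Med1, the Mediator subunit that contacts the hormone-bound receptor, had 4 probes citing 3 transcripts. Its brightest, A_51_P324082, read 8.89 and 8.86 in iodine and 8.81 and 8.74 in controls, with a difference of 0.10 ± 0.08. The next, A_55_P2502526, read 8.31 and 8.13 in iodine and 8.43 and 8.28 in controls, a difference of -0.13 ± 0.11. The other 2, both dim, gave -0.19 ± 0.12 and -0.15 ± 0.13, so 1 of 4 Med1 probes was higher and 3 were lower (2 and 2 with normexp), and the mean of the probes was -0.09. Crym had 1 probe, A_51_P264695, at 13.12 and 12.93 in iodine and 13.04 and 13.04 in controls. The controls were nearly equal and lay between the iodine arrays, and the difference was -0.02 ± 0.10 (adjusted p = 0.974 by limma), a fold of 0.988 with a 95% interval of 0.814 to 1.20.

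**Figure D2:**
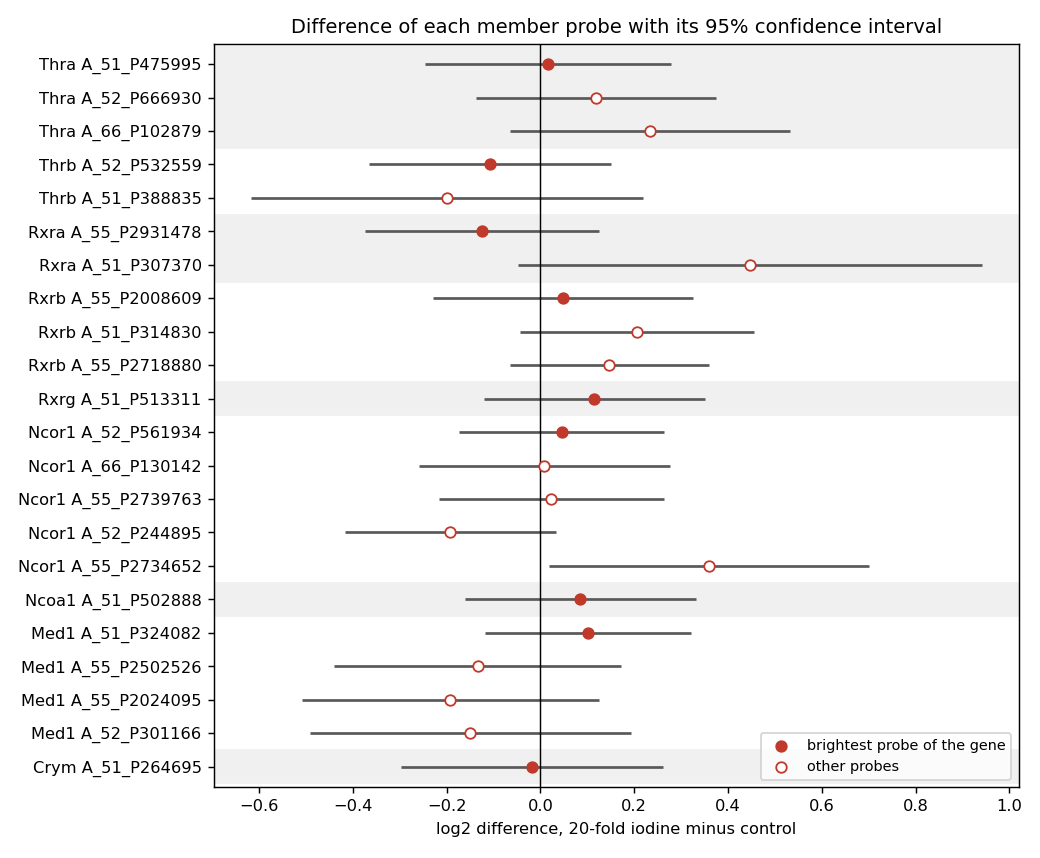
Log2 difference of each member probe, 20-fold iodine minus control, with its 95% confidence interval from limma (2 arrays per group); filled points are the brightest probe of a gene and open points its other probes. The filled points lie between -0.12 and 0.11 with every interval across 0, and the open points spread from -0.20 to 0.45, with 1 interval (Ncor1 A_55_P2734652) above 0.

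The dimmer probes of the members gave the wider spread of differences, which was not tested. Taking the brightest probe of each gene, the 9 differences ran from -0.12 to 0.11 with a median size of 0.09, and 3 of 9 separated the groups, against 39.9% of all genes by their brightest probe. The other 13 probes ran from -0.20 to 0.45 with a median size of 0.19, and 8 of 13 separated the groups, against 41.6% of all probes tested. Over all 16794 genes the brightest probe had a median size of 0.09, and 61.8% had a difference no larger than the largest of the 9. Of the 6 members with several probes, Thra, Thrb and Rxrb agreed in sign over all their probes as scaled here and Rxra, Ncor1 and Med1 did not. On the whole array the probes of 2905 of 6092 such genes (47.7%) were split in sign. The largest difference between probes of a gene had a median of 0.26 in the 6 members and 0.14 over all such genes.

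Across the arrays the members were most often highest on iodine replicate 2. That array held the highest value for 13 of 22 probes (of 9 genes), iodine replicate 3 for 2, control replicate 2 for 5 and control replicate 3 for 2. Over all probes tested it held the highest value for 10900 of 38228, more than any other array. Iodine replicate 3 held the lowest value for 10 of 22, and for 10651 of 38228 over all probes, again the most of any array. Within the iodine pair replicate 2 was above replicate 3 in 18 of 22 member probes (81.8%), where this held for 54.1% of all probes tested. In the brightest probes of Thra, Rxrb and Crym and in 2 of the bright Ncor1 probes the iodine arrays stood on either side of both controls. This order was more frequent among the members than over all probes tested, and marker lists differed in it. Hippocampal neuron markers also stood highest on iodine replicate 2 and lowest on iodine replicate 3. Their summed signals were 14540 and 12600 in iodine and 13110 and 13540 in controls (13 of 14 genes tested). Choroid plexus genes split the same 2 arrays the other way, with summed signals of 8401 and 42220 in iodine and 25530 and 22600 in controls (10 of 10 genes tested, led by Ttr). The part of either list in the members' spread was not tested.

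**Figure D3:**
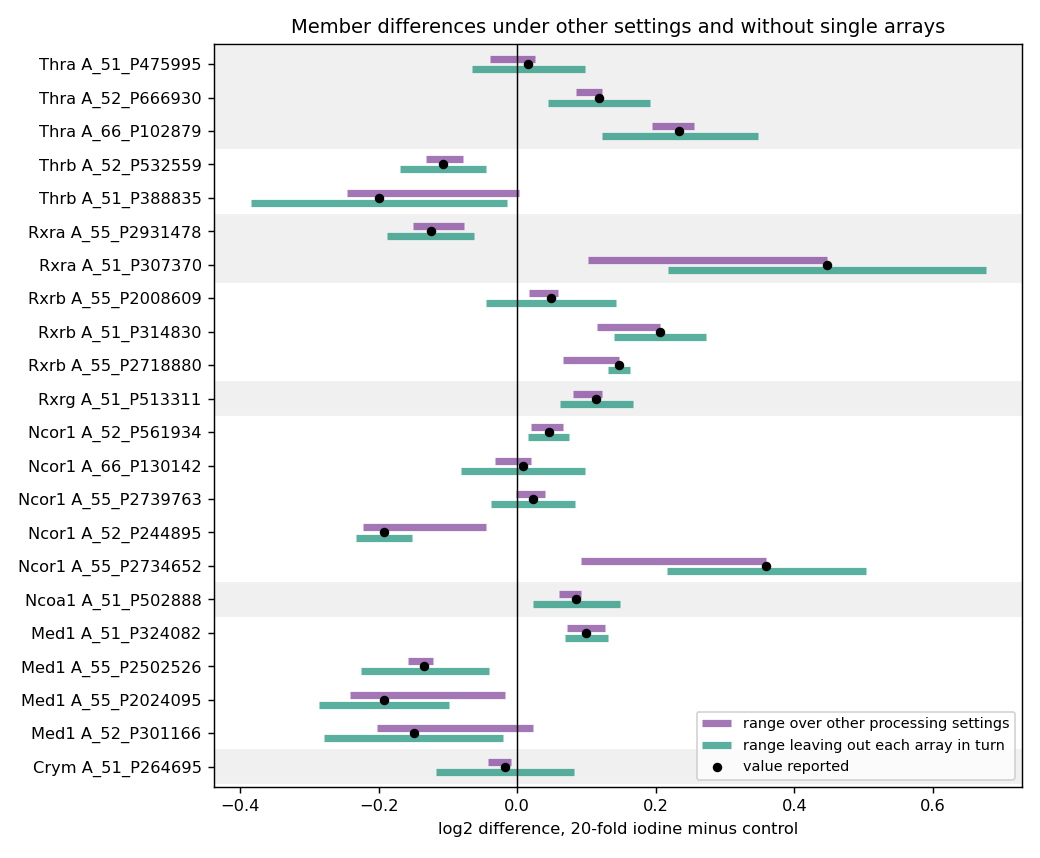
Log2 difference of each member probe (20-fold iodine minus control) as reported (black points), its range over the other processing settings (upper bars) and its range when each array in turn is left out (lower bars). For the dim Rxra and Ncor1 probes the bars reach from 0.10 and 0.09 up to 0.68 and 0.50, while the lower bars of the brightest Thra, Rxrb and Crym probes lie on both sides of 0.

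No other gene of the pathway passed the test either. Of 87 genes tested in lists of corepressors, coactivators, Mediator subunits, further RXR partners, hormone transport and targets, 0 passed the adjusted threshold in either direction (limma, brightest probe of each gene, 0% of all genes). At an unadjusted p under 0.05 there were 4 of 87, where 7.38% of all genes had such a p, and the groups did not overlap in 36 of 87, where they did not in 39.9% of all genes. Signs were 28 higher and 59 lower (median -0.05), against 7675 higher and 9119 lower over all genes (median -0.01).

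The corepressor list had 5 of 9 genes higher (median 0.02), or 4 of 9 (median -0.01) with scaling to the median, with Gps2, a subunit of the NCoR complex, at 0.19 ± 0.09 (SE) and the deacetylase gene Hdac2 at -0.14 ± 0.08. Hdac3, the deacetylase that NCoR1 carries, stood at -0.06 ± 0.10. Coactivators had 12 of 15 lower (median -0.09). Among them the histone demethylase gene Kdm3a was at -0.21 ± 0.07, with 8.28 and 8.25 in iodine and 8.49 and 8.47 in controls, and Ncoa6 at -0.15 ± 0.07 (adjusted p = 0.667 and 0.728 by limma). In the same list Crebbp, an acetyltransferase, stood at 0.14 and its relative Ep300 at -0.14. Mediator subunits had 20 of 29 lower (median -0.04), with Med7 at -0.28 ± 0.07 and Med30 at -0.26 ± 0.10. The Med7 arrays read 7.80 and 7.76 in iodine and 8.04 and 8.07 in controls, apart but not past the threshold (adjusted p = 0.667).

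Further partners of RXR had 7 of 10 lower (median -0.07), led by the orphan receptor gene Nr4a1 at -0.43 ± 0.16 (SE) and the retinoic acid receptor gene Rarb at -0.21 ± 0.09. Transport and deiodination genes had 7 of 9 lower (median -0.07), with Dio1, a deiodinase, at -0.23 ± 0.09 and the transporter gene Slco1a4 at -0.15 ± 0.14. Dio1 was dim, with 3.04 and 3.22 in iodine and 3.39 and 3.33 in controls. The lowest signals above background were 2.09 to 2.24. The list's largest difference was that of Ttr, also among the choroid plexus genes, at -0.35 ± 0.83. Its iodine arrays read 12.86 and 15.23, on either side of the controls. Among genes listed as thyroid hormone targets 9 of 15 were lower (median -0.03). Dbp, which is also a clock output gene, was at -0.59 ± 0.12, with 11.30 and 11.38 in iodine and 12.08 and 11.79 in controls, and Mbp, a myelin protein gene, at 0.31 ± 0.08 (adjusted p = 0.667 for both by limma). Hr and Klf9, direct targets of the receptors, were at 0.10 ± 0.09 and -0.03 ± 0.09. The medians of the other 5 lists stayed below 0 with normexp and with quantile scaling. With quantile scaling the targets and the Mediator subunits were both at -0.01, near the median of all genes as scaled here (-0.01). Scaling to the median lowered every difference by the same amount (median over all probes from 0.01 to -0.02). It could therefore not have raised a list's median above 0. No test of a whole list was run.

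**Figure D4:**
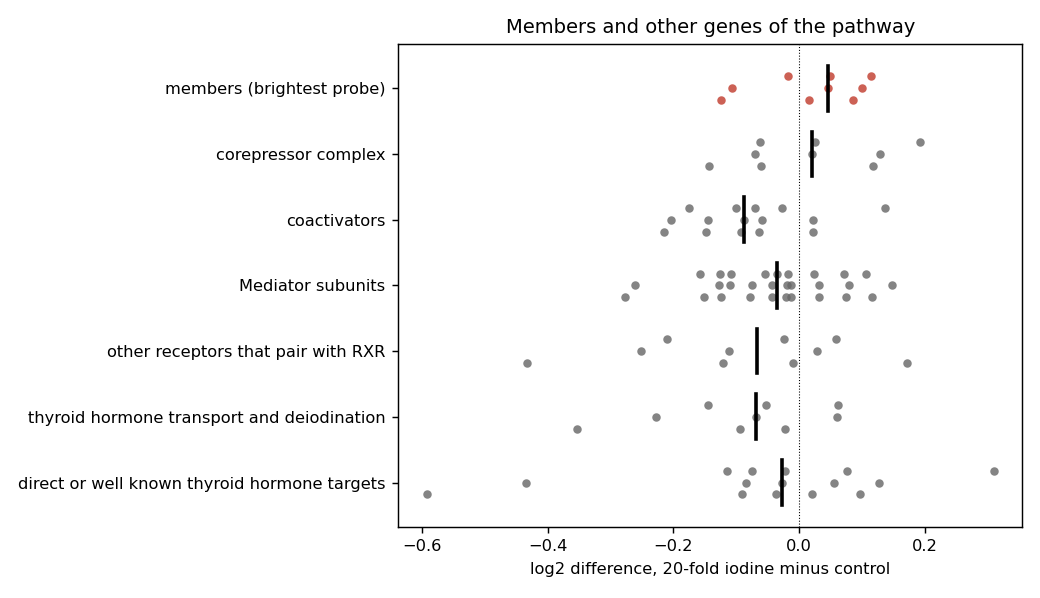
Log2 difference, 20-fold iodine minus control, of the brightest probe of each of the 9 members (red, top row) and of the genes of 6 other lists of the pathway (grey), with each row's median as a black bar. The members lie between -0.12 and 0.11, while the widest rows are the targets, with Dbp at -0.59 and Mbp at 0.31, and the RXR partners, with Nr4a1 at -0.43.

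Likeness over the arrays was measured as the root mean square of the difference between 2 genes' deviations from their means over 4 arrays, among 87 pathway genes. Nearest to Thra were the methyltransferase gene Carm1 (0.0146) and Nrip1, a corepressor (0.0201), and nearest to Thrb were Nr4a2 (0.0193) and Med13 (0.0343). Nearest to Rxra, the member with the largest difference by its brightest probe, were Ep300 (0.014) and Med31 (0.0405). These are descriptions over 4 arrays that share a slide. Some gene is nearest to any pattern, and the deviations matched were small (-0.07 to 0.09 for Thra). Whether the genes named lie nearer than chance would place them was not tested.

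The arrays were alike in depth, with 37533 to 37921 of 56605 probes well above background and Pearson's r of 0.994 to 0.995 between arrays over 38231 probes, which are not independent replicates. Of 14 hippocampal neuron markers 13 passed the filter, so the labelled tissue's markers were present, with 8 higher and 5 lower (median 0.03). All 4 arrays lay on 1 slide, with the iodine samples in positions 3 and 4 and the controls in 1 and 2, so position and group cannot be told apart.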

How the data were processed

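Messenger RNA of 4 samples was measured on Agilent 1-colour mouse arrays. The authors deposited the scanner intensity files of each array, and per the file headers the software was Agilent Feature Extraction, version 12.1.1.1. The deposited processed signal is background-subtracted and detrended within the array, and is not normalized between arrays. Well-above-background, outlier and saturation flags are the deposited ones (0/1 values), and no spot was saturated. Outlier spots (47 to 70 per array) were left out, spots of a probe averaged on the log2 scale, and the 75th percentile of each array (149.7 and 144.3 in iodine, 158.8 and 154.2 in control) subtracted with the mean added back. Probes well above background on at least 2 arrays were fitted each on its own with limma 3.58.1 in R 4.3.3 (lmFit and eBayes, two-sided), with Benjamini-Hochberg adjustment over 38231 probes. Genes were named through RefSeq accessions (GRCm38.p6; 58.3% of probes), which differs from the older build in the array header, so probe coordinates are not given. Gene-level values are those of the brightest probe.

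The deposited median spot and background intensity columns served the normexp alternative (offset 50), in place of the mean signal. Alternatives also covered quantile and median scaling, the filter, a variance trend, the replicate number as a block and each array left out. A slide block was not possible with 1 slide. The test was run on simulated data to check the direction and size of planted differences. All of those were larger than any difference among the members, so differences of the members' size were not checked. The members and lists were chosen with earlier results of these data known. The text names every member, the 2 genes of each pathway list with the smallest unadjusted p and the nearest genes by pattern. Nr1d1, Hdac3, Crebbp, Ep300, Hr, Klf9, Ttr, Drd2, Gh, Prl, Pomc and Lhb are further genes, chosen with their values known. The files were read through version 1.17.8 of data.table, and matplotlib 3.10.9 (Python 3.11.15) made the figures. The number of arrays limits the precision.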

Additional observations from a re-analysis of the deposited data

How the results depend on the processing

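No member probe passed the adjusted threshold in any setting (smallest adjusted p = 0.411, with normexp, against 0.546 as reported). Over all probes 0 passed as reported, 25 with normexp and 53 with an intensity trend and robust variances, none of them a member. With 1 probe per gene 0 genes passed, and also 0 when the probes of a gene were averaged. Of 153 comparisons of member probes under other settings 146 kept their direction. The 7 that reversed were, with normexp, Thrb A_51_P388835 (0.00298), Thra A_51_P475995 (-0.0389), Med1 A_52_P301166 (0.0233) and Ncor1 A_66_P130142 (-0.0315), and, with scaling to the median of probes above background on all arrays, Thra A_51_P475995 (-0.00877), Ncor1 A_55_P2739763 (-0.00156) and Ncor1 A_66_P130142 (-0.0166); the cause was not tested. By gene, the mean of probes reversed Rxra (0.161) and Med1 (-0.0936), since their probes differ in sign.

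Leaving out each array in turn, the median over the members ran from -0.041 (without iodine replicate 2) to 0.098 (without iodine replicate 3), with the lone array assumed to vary like the other group. Directions reversed in 6 of 88 cases, with ranges of -0.0654 to 0.0977 for Thra A_51_P475995, -0.0447 to 0.142 for Rxrb A_55_P2008609, -0.0373 to 0.084 for Ncor1 A_55_P2739763, -0.0816 to 0.0983 for Ncor1 A_66_P130142 and -0.117 to 0.0822 for Crym A_51_P264695. Same-numbered arrays did not deviate together over the probes (r = -0.0205 over 38228 probes). With 2 arrays per group this cannot tell whether equal numbers mark samples of a shared origin, and the labels state no block. With the replicate block 0 probes passed (smallest adjusted p = 0.622 by limma), and the members' median stayed at 0.0345. Probes at an unadjusted p under 0.05 by limma were 3031, against 3453 without the block. Dim probes, close to background, carry the widest intervals and the 2 largest differences among the members.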
